A study of Mus musculus with 16 samples.

Results

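The miR-200 family consists of 5 microRNAs, miR-200a-3p, miR-200b-3p, miR-200c-3p, miR-141-3p and miR-429-3p, which were followed through 8 small RNA libraries of mouse sperm. A read was given to a member when it was 20 to 26 nt long and began with the first 20 bases of that member's mature 3p arm. The members are 5 of 1621 mouse microRNA arms that can be told apart by their first 20 bases. Reads of 545 arms were found, and 187 arms, with all 5 members among them, had enough reads to be tested.

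Mature sperm came from the cauda epididymis of adult males and were pelleted at 600g from saline, with no step to remove other cells given in the labels. Males were Dnmt2+/+ or Dnmt2-/-; Dnmt2, also called Trdmt1, is a methyltransferase that modifies tRNA. The knockout allele, from the strain B6;129-Dnmt2tm1Bes/J, had been backcrossed to C57BL/6NCrl, and the strain of all samples is given as C57BL/6NCrl. Each genotype received a normal diet (ND, Diet 1415) or a high-fat diet (HFD, D12492), which gave 4 groups with 2 libraries in each. Age at collection beyond adult, and the length of the diet, are not given in the sources used here. Whether the 2 libraries of a group came from separate animals or pools is not stated either, so a p-value here reflects how far libraries differ, and that difference may be technical. The question behind the groups is whether diet, Dnmt2 or their combination alters the RNA that sperm carry.

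The miR-200 family is best known as a mark of epithelial cells, in which it represses Zeb1 and Zeb2, transcription factors that drive the change from an epithelial to a mesenchymal state. The epithelium that lines the epididymis expresses the family. Sperm are thought to take up part of their small RNA from vesicles that this epithelium releases during their passage. The epithelium itself was not sampled here. In RNA of a mixed pellet, fewer cells of a type and less RNA per cell cannot be told apart.

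The mature sequences, from RefSeq on GRCm38.p6 and matched for 5 of 5 members, are shown because their seeds set the targets and because single bases decide which member a read is given to. Each is written 5′ to 3′ with the seed, bases 2 to 8, in capitals.
miR-200b-3p: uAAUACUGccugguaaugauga
miR-200c-3p: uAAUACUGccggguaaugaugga
miR-429-3p: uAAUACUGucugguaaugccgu
miR-200a-3p: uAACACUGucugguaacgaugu
miR-141-3p: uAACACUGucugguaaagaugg

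The seeds form 2 groups. miR-200b-3p, miR-200c-3p and miR-429-3p share one seed, and miR-200a-3p and miR-141-3p share the other. Positions are counted from 1 at the 5′ end, and the seeds differ by C4U, read from the miR-200a-3p seed to that of miR-200b-3p. No other mature arm in the RefSeq table has either seed. Within the first 20 bases, miR-200b-3p differs from miR-200c-3p by U11G alone, and miR-200a-3p differs from miR-141-3p by C17A alone.

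The genome groups the members otherwise. Mir200b, Mir200a and Mir429 lie on the minus strand within 1846 bp at chr4:156053905-156055750, inside the annotated span of the long noncoding RNA gene Gm13648. Their mature arms are at chr4:156055685-156055706, chr4:156054911-156054932 and chr4:156053916-156053937. Mir200c and Mir141 lie on the minus strand within 477 bp at chr6:124717914-124718390, between the protein-coding genes Phb2 and Ptpn6 and inside neither. Their mature arms are at chr6:124718324-124718346 and chr6:124717917-124717938. Each cluster thus holds a member of each seed group.

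The libraries held 10165031 to 19030258 reads of 18 to 44 nt, and levels are given as reads per 1000000 reads of the library (CPM). A count of 0 allows up to 3 reads, or 0.158 to 0.295 CPM, and such limits and intervals cover counting error only, since reads were not tagged by molecule and PCR copies count separately. The rate of base changes at fixed read positions split the libraries into sets that the labels do not name. Reads in which base 29 had changed from G to T numbered 374 to 412 per 10000 in 3 ND libraries (set A: Dnmt2+/+ replicate 1 and both Dnmt2-/-) and at 3.92 or less elsewhere. Changes from C to G at base 26 ran at 9.53 to 11 per 10000 in 3 HFD libraries (set B: both Dnmt2+/+ and Dnmt2-/- replicate 1) and at 1.33 or less elsewhere. Dnmt2+/+ ND replicate 2 and Dnmt2-/- HFD replicate 2 form set C. Set A is all ND and set B all HFD, so diet and set cannot be told apart outside set C, whose 2 libraries also differ in genotype. The sets also differed in their microRNA content, which was 1.08% to 2.76% of reads in set A, 5.33% to 7.01% in set B, and 2.10% and 2.61% in set C.

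The family was abundant in every library and was carried by 2 members, miR-200b-3p and miR-200c-3p, 1 from each cluster. Summed over the 5 members it came to 304 and 1914 CPM in Dnmt2+/+ ND, 3987 and 3481 in Dnmt2+/+ HFD, 412 and 190.5 in Dnmt2-/- ND, and 3035 and 608 in Dnmt2-/- HFD, with replicate 1 given first here and below. Set A was lowest, set B highest, and the set C libraries fell between them. As a share of all microRNA reads the family made up 1.10% and 9.10%, 5.69% and 6.54%, 3.82% and 1.43%, and 5.13% and 2.33% of the same groups. On that scale Dnmt2+/+ ND replicate 2, of set C, was the highest library.

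Among the members of the chromosome 6 cluster, miR-200c-3p had the highest mean of the family, 904 ± 938 CPM (SD, n = 8). It stood at 87.0 and 755.5 CPM in Dnmt2+/+ ND, 2379 and 1762 in Dnmt2+/+ HFD, 129.6 and 56.35 in Dnmt2-/- ND, and 1808 and 251 in Dnmt2-/- HFD. The 3 highest libraries were those of set B, and the 3 lowest were those of set A. Its rank among the microRNAs of a library ran from 8 to 24. By group mean the order was Dnmt2+/+ HFD (2071 ± 436 CPM), Dnmt2-/- HFD (1029 ± 1101), Dnmt2+/+ ND (421 ± 473) and Dnmt2-/- ND (93.0 ± 51.8; SD, n = 2 each). In this order each group overlapped the next. Within each genotype, though, both HFD libraries lay above both ND libraries. The share of all tested microRNAs with such a gap is not given here.

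miR-141-3p, whose hairpin follows that of miR-200c on the same strand, was the rarest member. Its levels were 0.526 and 8.57 CPM in Dnmt2+/+ ND, 4.76 and 3.54 in Dnmt2+/+ HFD, 0.835 and 0.152 in Dnmt2-/- ND, and 5.24 and 1.58 in Dnmt2-/- HFD. These rest on 2 to 117 reads a library and 300 in all, against 78798 of miR-200c-3p. The lowest, 2 reads in Dnmt2-/- ND replicate 2, has a 95% Wilson interval of 0.0417 to 0.555 CPM. There were 0.002 to 0.0114 reads of miR-141-3p for each read of miR-200c-3p. Groups overlapped except that both Dnmt2-/- HFD libraries and both Dnmt2+/+ HFD libraries lay above both Dnmt2-/- ND libraries.

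In the chromosome 4 cluster miR-200b-3p was the most abundant. It stood at 156 and 846 CPM in Dnmt2+/+ ND, 1364 and 1506 in Dnmt2+/+ HFD, 210.3 and 93.6 in Dnmt2-/- ND, and 1030 and 273 in Dnmt2-/- HFD. Set B again held the 3 highest and set A the 3 lowest values. Group means were 1435 ± 101 CPM in Dnmt2+/+ HFD, 652 ± 535 in Dnmt2-/- HFD, 501 ± 488 in Dnmt2+/+ ND and 152 ± 82.5 in Dnmt2-/- ND (SD, n = 2 each). The first lay clear of the second, and each later group overlapped the one before it. Within each genotype both HFD libraries lay above both ND libraries, as for miR-200c-3p.

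miR-200a-3p, from the neighbouring hairpin, varied least in proportion to its mean of 129.7 ± 81.2 CPM (SD, n = 8). Its levels were 58.2 and 268 CPM in Dnmt2+/+ ND, 197.5 and 166 in Dnmt2+/+ HFD, 66 and 39.3 in Dnmt2-/- ND, and 164 and 79.0 in Dnmt2-/- HFD. The highest library was an ND library, Dnmt2+/+ replicate 2 of set C, and set A held the 3 lowest values. Group means of 182 ± 22.6 CPM in Dnmt2+/+ HFD, 163 ± 148 in Dnmt2+/+ ND and 121 ± 59.9 in Dnmt2-/- HFD overlapped in turn, and Dnmt2-/- ND at 52.7 ± 18.9 lay below Dnmt2-/- HFD without overlap (SD, n = 2 each).

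miR-429-3p, the last of the cluster, was present at 2.26 and 35.97 CPM in Dnmt2+/+ ND, 41.9 and 42.7 in Dnmt2+/+ HFD, 5.31 and 1.07 in Dnmt2-/- ND, and 28.3 and 3.01 in Dnmt2-/- HFD. Here 4 libraries were high, the 3 of set B and Dnmt2+/+ ND replicate 2, and the other 4 were at 5.31 CPM or less. The 2 Dnmt2+/+ HFD libraries lay above the rest, and the other groups overlapped.

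**Figure D1:**
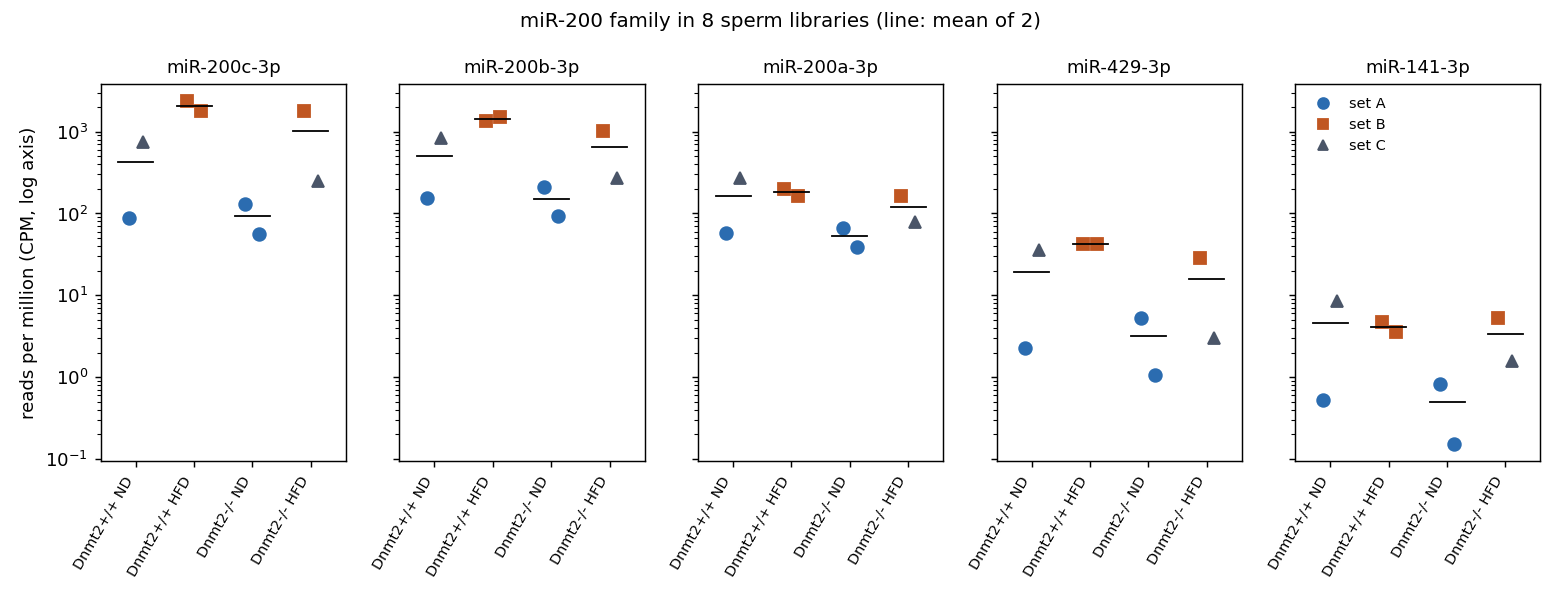
CPM of each member on a log axis, 1 panel per member, by genotype and diet; each point is a library, coloured and shaped by set, and the line is the mean of 2. In miR-200c-3p, for example, the set B libraries lie at 1762 to 2379 CPM and the set A libraries at 56.35 to 129.6 CPM, with the set C libraries between them.

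The members differed in how far set B lay above set A. All 5 were higher in the 3 set B libraries than in the 3 set A libraries, as were 78.6% of the 187 tested microRNAs, so the direction is that of the background. The ratio of the set means was 21.8 for miR-200c-3p, 13.1 for miR-429-3p, 8.96 for miR-141-3p, 8.48 for miR-200b-3p and 3.22 for miR-200a-3p. The comparison of sets was chosen after the values were seen and carries no test. In set C the direction turned: the HFD library was below the ND library for all 5 members, as for 72.7% of the tested microRNAs. The ND library there exceeded the HFD library 3.01-fold for miR-200c-3p, 3.09-fold for miR-200b-3p, 3.39-fold for miR-200a-3p, 5.43-fold for miR-141-3p and 12.0-fold for miR-429-3p. With 1 library of each, these are values of 2 libraries.

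The makeup of the family moved with the sets. miR-200c-3p made up 28.65% to 31.45% of the family's reads in set A and 50.64% to 59.7% in set B, with the set C libraries between them at 39.5% (ND) and 41.3% (HFD). miR-200a-3p went the other way, from 16.0% to 20.6% in set A to 4.76% to 5.39% in set B, with set C at 14.01% and 12.99%. The widest 95% Wilson interval of these shares was ± 1.79 points for miR-200c-3p and ± 1.58 for miR-200a-3p, so the gaps between sets exceed counting error. The set C libraries, of opposite diet and genotype and 3.15-fold apart in total, lay closer to each other in these shares than to either other set.

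**Figure D2:**
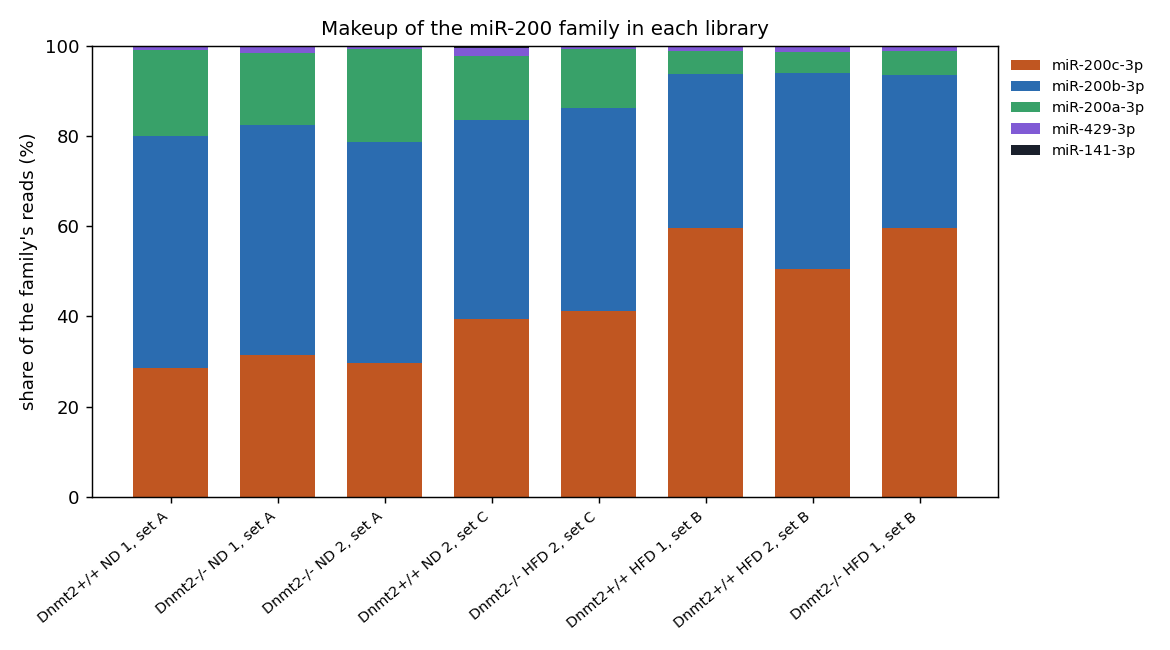
Share of the family's reads held by each member in each library, ordered by set; the 5 segments of a bar add to 100%. The miR-200c-3p segment is 28.65% to 31.45% in set A and 50.64% to 59.7% in set B, with the set C libraries between them, while that of miR-200a-3p shrinks.

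The cluster on chromosome 6 supplied fewer reads than the cluster on chromosome 4 in 5 libraries and more in the 3 of set B. Their ratio was 0.405 and 0.665 in Dnmt2+/+ ND, 1.49 and 1.03 in Dnmt2+/+ HFD, 0.463 and 0.422 in Dnmt2-/- ND, and 1.48 and 0.711 in Dnmt2-/- HFD. All 4 HFD values thus exceeded all 4 ND values, and within set C the gap shrank to 0.711 against 0.665. A ratio over the members carries no test here, and it was set nearly whole by miR-200c-3p and miR-200b-3p, whose own ratio ran from 0.559 to 0.616 in set A and from 1.17 to 1.76 in set B.

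Members of a single cluster did not keep a fixed ratio either. Within chromosome 4 there were 0.314 to 0.42 reads of miR-200a-3p for each read of miR-200b-3p in set A, against 0.11 to 0.159 in set B; the set C libraries had 0.317 (ND) and 0.289 (HFD). For miR-429-3p the ratio to miR-200b-3p was 0.011 to 0.0425 over the 8 libraries, with 0.0275 to 0.0307 in set B. The seed group of miR-200a-3p and miR-141-3p held 0.194 to 0.261 reads for each read of the other seed group in set A, against 0.0511 to 0.0589 in set B, with set C at 0.169 and 0.153. The pair that shares a seed across clusters, miR-200b-3p and miR-200c-3p, is told apart by base 11 alone. T-to-G and G-to-T changes at that base of abundant reads ran at 0.620 to 2.12 per 10000. In reads of the pair itself, the bases of neither member, A or C, stood there in 23.5 to 50.7 per 10000, highest in Dnmt2-/- ND replicate 2 with 10 of 1972 reads.

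For diet, the question was whether HFD changed the members in either genotype, and none of the 5 passed the test. The fit was the edgeR quasi-likelihood test over 187 microRNAs, scaled by total reads, with a Benjamini-Hochberg adjusted p under 0.05 called. In Dnmt2+/+ sperm 0.535% of the tested microRNAs were called, and in Dnmt2-/- sperm 0.535%; in each case this was let-7f-5p, with an edgeR adjusted p of 0.0228 and 0.0365. In Dnmt2+/+ sperm the log2 fold change of HFD over ND was 2.30 ± 1.13 (SE) for miR-200c-3p, with an interval of -0.29 to 4.88 and an edgeR adjusted p of 0.584. It was 1.52 ± 0.90 for miR-200b-3p (edgeR adjusted p = 0.617). The values for miR-429-3p, miR-200a-3p and miR-141-3p were 1.15 ± 1.40, 0.15 ± 0.78 and -0.13 ± 1.33. In this contrast 4 of 5 members were above 0, with a median of 1.15, against 77.5% and a median of 0.61 over all tested microRNAs.

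In Dnmt2-/- sperm all 5 estimates were above 0, as were 95.2% of the tested microRNAs. miR-200c-3p had a log2 fold change of 3.47 ± 1.19 (SE), an interval of 0.75 to 6.19, and an edgeR adjusted p of 0.147. Without Dnmt2-/- HFD replicate 1, the set B library of its group, miR-200c-3p stood at 1.43 and miR-200b-3p at 0.85 (edgeR adjusted p = 0.609 and 0.664), and without Dnmt2-/- HFD replicate 2 at 4.28 and 2.76 (0.0814 and 0.156). For miR-200b-3p it was 2.10 ± 0.91 (edgeR adjusted p = 0.172), and for miR-141-3p, miR-429-3p and miR-200a-3p it was 2.76 ± 1.46, 2.29 ± 1.46 and 1.20 ± 0.79. The median of the members was 2.29, against 2.05 over all tested. Unadjusted, 2 members (miR-200c-3p and miR-200b-3p) and 53 of all tested were under 0.05 in Dnmt2-/- sperm, and 0 members and 18 of all tested in Dnmt2+/+ sperm. No member had all 4 HFD libraries above all 4 ND libraries, which 13.9% of the tested microRNAs had. For miR-200c-3p and miR-200b-3p, Dnmt2+/+ ND replicate 2 exceeded Dnmt2-/- HFD replicate 2, both of set C.

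These diet values changed with the treatment of the sets. With the set as a term, the log2 fold change of all 5 members was below 0 in both genotypes, from -1.15 (miR-200b-3p) to -3.0 (miR-429-3p) in Dnmt2+/+ and from -1.59 to -4.07 for the same members in Dnmt2-/-, and none passed the test. Diets meet inside a set only in set C, where they also differ in genotype, so that fit corrects the set C contrast by the genotype difference seen within set B (for Dnmt2+/+) or set A (for Dnmt2-/-). Without Dnmt2+/+ ND replicate 2, which left a lone ND library, miR-200c-3p stood at 4.57 and miR-200b-3p at 3.20 in Dnmt2+/+. Members passed in that fit, but a lone library shows no spread of its group. The median over all tested was then 2.47. Without Dnmt2+/+ ND replicate 1 instead, miR-200c-3p and miR-200b-3p stood at 1.45 and 0.76, against a median of 0.04 over all tested. Scaling by TMM moved the median of all tested microRNAs from 0.61 to -0.19 in Dnmt2+/+ and from 2.05 to -0.08 in Dnmt2-/-. On that scale miR-200c-3p stood at 1.62 and 1.12 and miR-200a-3p at -0.75 and -0.88, and neither passed.

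For genotype on ND, with no library left out, the estimates of all 5 members were below 0 and none was called, nor was any other microRNA (0% of those tested). The log2 fold change of Dnmt2-/- over Dnmt2+/+ was -3.17 ± 1.47 (SE) for miR-141-3p, -2.58 ± 1.47 for miR-429-3p, -2.18 ± 1.13 for miR-200c-3p, -1.72 ± 0.90 for miR-200b-3p and -1.63 ± 0.80 for miR-200a-3p. Their edgeR adjusted p-values were 0.255 to 0.27, and 26 of the tested microRNAs had an unadjusted p under 0.05, none of them a member. The median of the members was -2.18 and that of all tested -1.65. Within set A, where both genotypes are on ND, the family stood at 304 CPM in the Dnmt2+/+ library and at 412 and 190.5 CPM in the Dnmt2-/- libraries, 1 above it and 1 below. Without Dnmt2+/+ ND replicate 1, which left only a set C library against set A, the 5 estimates were -2.35 to -4.09. Members passed in that fit, but a lone library shows no spread of its group, so they are given by size only. The median over all tested was then -2.35. Without Dnmt2+/+ ND replicate 2, which left set A alone on ND, the 5 estimates were -0.14 (miR-200a-3p), -0.04 (miR-200b-3p), 0.49 (miR-429-3p), 0.10 (miR-200c-3p) and -0.09 (miR-141-3p). The median over all tested was then -0.13.

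On HFD, 0% of the tested microRNAs were called for genotype and none had an unadjusted p under 0.05. The members' log2 fold changes were -0.29 to -1.43, with an edgeR adjusted p of 0.971 for each, against a median of -0.51 over all tested. Within set B the Dnmt2-/- library held 3035 CPM of the family and the Dnmt2+/+ libraries 3987 and 3481. The interval for miR-200b-3p, -3.17 to 0.89, is wide enough to hold a large decrease as well as no change. The interaction of diet and genotype called 0% of the tested microRNAs, with 2 at an unadjusted p under 0.05. Members' estimates were 0.58 to 2.89, with a median of 1.15 against 1.17 over all tested, and their edgeR adjusted p-values were 0.789 to 0.801. DESeq2 called 0 microRNAs in both genotype comparisons and in the interaction.

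**Figure D3:**
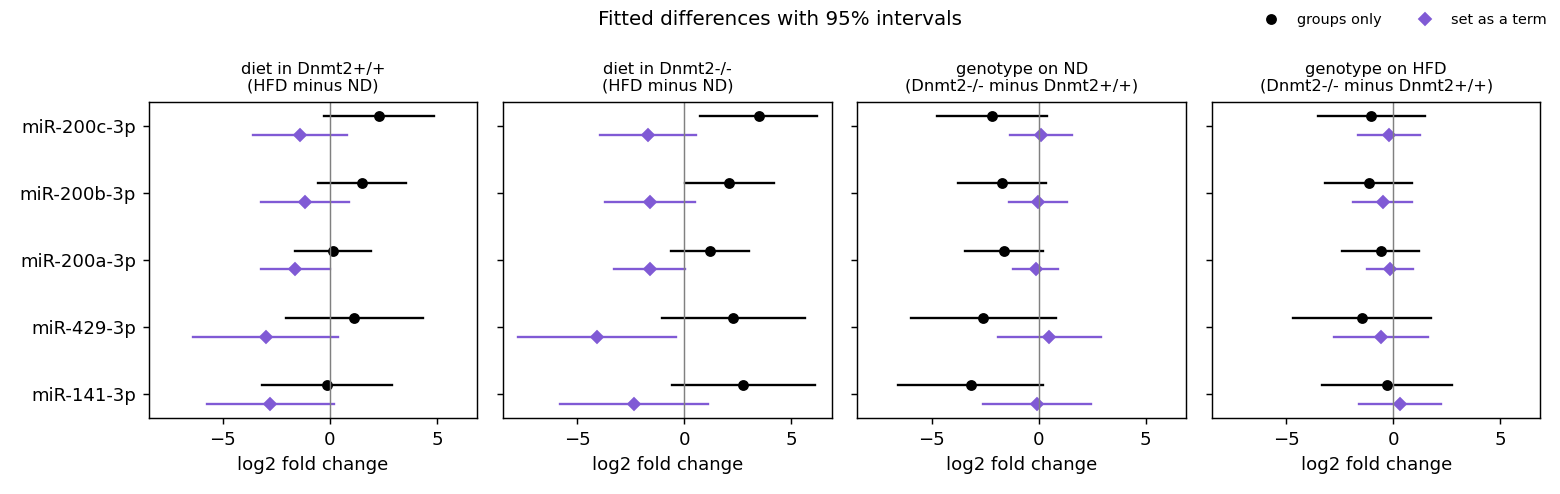
Log2 fold change of each member with its 95% interval in 4 comparisons, from edgeR with the groups alone (black circles) and with the set as a term (violet diamonds); the grey line is at 0. In both diet panels the violet points lie below 0, while 9 of the 10 black points lie above 0.

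Most reads of 4 members were not the RefSeq form. The leading forms are shown because the ends decide how much of each member matches its reference, with bases that are not in the hairpin in capitals. Of miR-200c-3p reads, 52.45% were the RefSeq form. Of miR-200b-3p reads, 33.2% ended 1 base later than RefSeq, 17.7% carried an added U on that form, and 16.0% were the RefSeq form. Of miR-200a-3p reads, 62.96% ended 1 base before the RefSeq end.
miR-200b-3p, 23 nt: uaauacugccugguaaugaugac
miR-200b-3p, 24 nt with added U: uaauacugccugguaaugaugacU
miR-200a-3p, 21 nt: uaacacugucugguaacgaug
miR-141-3p, 21 nt: uaacacugucugguaaagaug

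miR-141-3p shared the short end of its seed partner: 70.3% of its 300 reads were the 21 nt form and 5 reads were the RefSeq form. miR-429-3p was 44.2% RefSeq form and 25.5% a form 1 base shorter. These forms also bear on the match of miR-200a-3p and miR-141-3p, which differ at base 22 beside C17A. Of 17 miR-141-3p reads of 22 nt or more, 11 had its own base at base 22 and 1 had that of miR-200a-3p. At base 17, the bases of neither member stood in 5.82 to 22.98 per 10000 reads of the pair, in the libraries with any such read. Reads of 21 nt have no base 22, so whether some of those given to miR-141-3p were misread miR-200a-3p was not tested.

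Added bases at the 3′ end were most frequent in miR-200b-3p, at 37.6% of its reads, then miR-429-3p (26.1%), miR-200c-3p (25.2%), miR-141-3p (14.7%) and miR-200a-3p (13.1%). Between 85.1% and 95.6% of the added ends of a member were 1 base long. U came first in 62.1% of the added ends of miR-200b-3p and 48.2% of those of miR-200c-3p, and A in 60.7% of those of miR-200a-3p and 77.3% of those of miR-141-3p. In miR-429-3p, A, C and U took 31.2%, 31.0% and 28.7%. An added base is called against the hairpin alone, so a read error in the last base counts as one.

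Read lengths of miR-200a-3p differed between set A and set B, as its level did. Reads of 21 nt made up 84.7% to 88.6% of the member in set A and 51.75% to 65.3% in set B. The share was 63.0% in the ND library of set C and 87.25% in its HFD library, so the low-level library had the higher share of short reads there too. The widest 95% Wilson interval was ± 2.75 points. For miR-200b-3p, reads of 23 nt made up 48.1% to 58.0% in set A and 34.96% to 39.3% in set B, and 36.85% (ND) and 55.35% (HFD) in set C. For miR-200c-3p, reads of 23 nt made up 47.3% to 52.8% in set A and 53.3% to 57.7% in set B, and in set C 58.3% (ND) and 47.0% (HFD), beyond those ranges on either side.

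**Figure D4:**
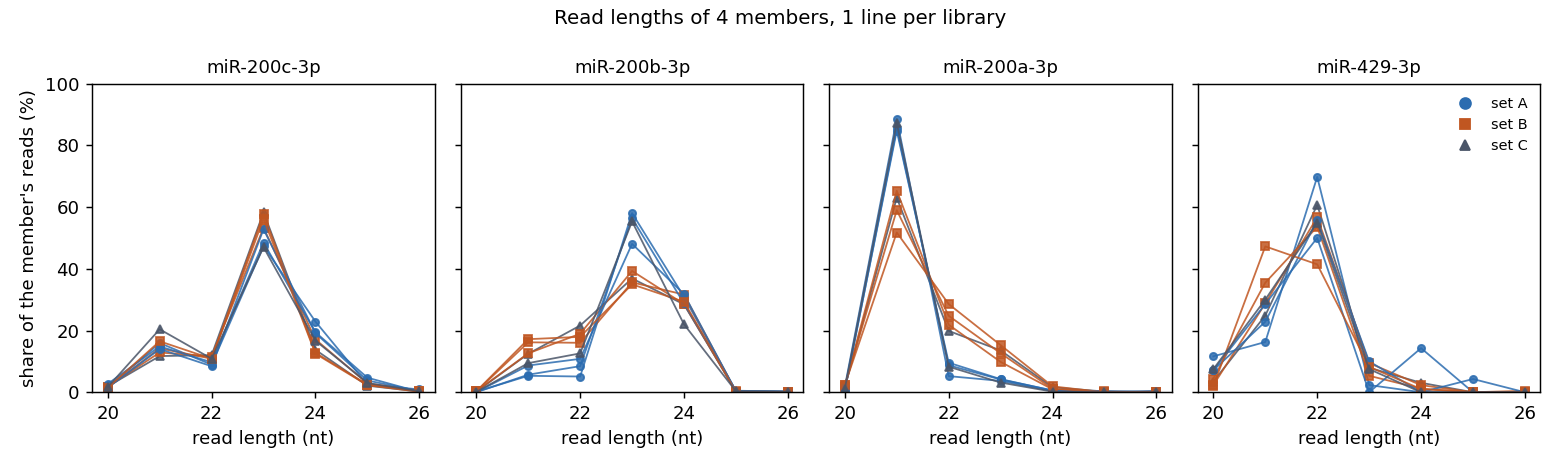
Share of the reads of 4 members at each length from 20 to 26 nt, 1 line per library, coloured by set; miR-141-3p is left out because it had 2 to 117 reads a library. In the miR-200a-3p panel the set A libraries peak at 84.7% to 88.6% at 21 nt and the set B libraries at 51.75% to 65.3%.

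The design leaves tests on these forms little room to pass. For each member the share of the RefSeq form and the share with added bases were compared over 4 libraries against 4, by diet and by genotype, in 20 two-sided exact permutation tests, each of which can reach 0.0286 at best. A single test at that value would adjust to 0.571, and 12 of the 20 would have to reach it together to pass, so that no test passed says little about the forms. The lowest exact p was 0.0857, adjusted to 0.714. It was reached by the RefSeq form of miR-200a-3p, at 15.6% ± 7.33 on HFD and 6.78% ± 6.07 on ND (SD, n = 4 each), and by that of miR-429-3p, at 42.1% ± 7.76 and 54.9% ± 10.2. Within set C the RefSeq form of miR-200a-3p was higher on ND, at 15.5%, than on HFD, at 5.04%, and that of miR-429-3p was 46.8% on ND and 47.5% on HFD.

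The 5′ end, which sets the seed, lay 1 base later in part of the miR-200b-3p reads. Reads that start 1 base later made up 2.64% of miR-200b-3p reads, 1688 in all. By library these were 3.57% and 2.79% in Dnmt2+/+ ND, 2.48% and 1.75% in Dnmt2+/+ HFD, 4.76% and 5.51% in Dnmt2-/- ND, and 2.73% and 2.80% in Dnmt2-/- HFD. Set A held the 3 highest values. Over the 8 libraries together, the same shift made up 0.119% or less of the reads of each other member, and in single libraries at most 0.402% (miR-429-3p, 2 reads). Starts 1 base earlier were at 0.492% or less over the 8 libraries together, except for miR-141-3p with 14 such reads beside its 300. The seed of the later start is AUACUGC, which no mature arm of the table has. These counts were added after the data were seen.

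The opposite strand of the hairpin, the 5p arm, was most frequent in the miR-200a hairpin. Its share of the reads of both arms was 44.2% and 13.2% in Dnmt2+/+ ND, 12.85% and 12.5% in Dnmt2+/+ HFD, 13.35% and 40.6% in Dnmt2-/- ND, and 11.8% and 29.9% in Dnmt2-/- HFD. The 95% Wilson intervals of the 3 high libraries, 42.0% to 46.4%, 37.4% to 43.9% and 27.6% to 32.25%, stood clear of those of the other 5, which ended at 15.6% or less. The 3 high libraries came from 3 groups, and 2 of them belong to set A. In reads, miR-200a-5p varied less than its partner, from 10.2 to 46.1 CPM. It did not pass in any of the 5 comparisons, with edgeR log2 fold changes of -1.23 to 1.3. For miR-200b the 5p arm made up 0.763% to 2.38%. miR-141-5p had 25 reads in all, miR-200c-5p 2, and miR-429-5p 0 beside 1815 reads of its 3p arm.

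**Figure D5:**
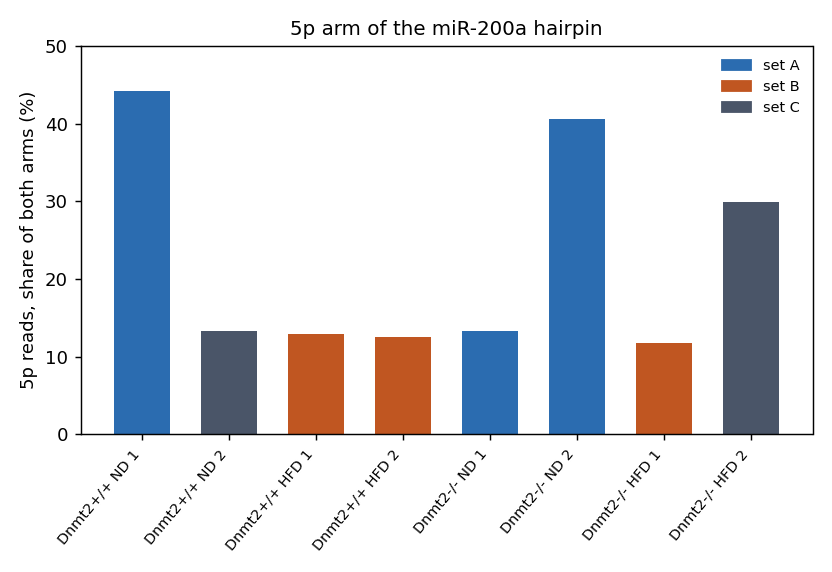
Reads of miR-200a-5p as a share of the reads of both arms of the miR-200a hairpin in each library; bars start at 0 and are coloured by set. The libraries at 44.2%, 40.6% and 29.9% stand above the other 5, which lie between 11.8% and 13.35%.

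Patterns over the 8 libraries were compared by the root mean square difference of log2(CPM + 1), centred on each microRNA's own mean, which is 0 for equal patterns. Of the members, miR-200b-3p and miR-429-3p of the same cluster differed by 0.444, and miR-200b-3p and miR-200c-3p of different clusters by 0.616. miR-200a-3p differed from miR-200b-3p, its neighbour, by 0.674 and from miR-200c-3p by 1.24. miR-141-3p was left out of this account, since its levels lie near the pseudocount of 1 CPM. miR-429-3p, at 1.07 to 42.7 CPM, also comes near it in its low libraries, where the pseudocount compresses differences. The value of 0.444 therefore does not show that members of a cluster are more alike. Outside the family, 77 microRNAs averaged 10 CPM or more. The most like the family's sum were miR-125b-5p (0.300), miR-465a-5p (0.365), miR-21a-5p (0.399), miR-26a-5p (0.422) and miR-196b-5p (0.446). Of these, miR-196b-5p, at 0.315 to 34.2 CPM, and miR-465a-5p, at 1.52 to 35.7 CPM, also come near the pseudocount in their low libraries. Their likeness is limited in the same way. miR-26a-5p, for example, stood at 41.2 and 556 CPM in Dnmt2+/+ ND, 863.5 and 673 in Dnmt2+/+ HFD, 78.1 and 59.5 in Dnmt2-/- ND, and 670 and 219 in Dnmt2-/- HFD. All libraries enter each of these measures, so likeness includes whatever separates the sets.

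Lists of microRNAs known from other cell types were measured beside the family, and their part in its differences was not tested. Listed microRNAs with no entry in the reference, such as miR-34c-5p, were not measured. Of 7 other epithelial microRNAs, 6 were in the reference and tested, and none was called. Their sum was 266 to 581 CPM in set A, 615 to 816 in set B, and 494 (ND) and 345 (HFD) in set C, a range set mostly by miR-182-5p and miR-183-5p, at means of 369.6 and 132 CPM. Singly, 5 of the 6 were higher in all set B than in all set A libraries, the exception being miR-182-5p. Of all tested microRNAs 78.6% were, so this is near the background. miR-31-5p stood at 0.152 to 0.986 CPM in set A and 11.2 to 19.1 in set B, miR-203-3p at 0.315 to 1.06 and 7.48 to 8.83, miR-96-5p at 1.29 to 1.90 and 9.51 to 12.0, and miR-205-5p, a keratinocyte and basal cell microRNA, at 2.59 to 5.31 and 14.85 to 25.8. Of 11 male germ cell microRNAs, 10 were in the reference, 9 were tested and none was called. The list summed to 354 to 1568 CPM in set A, 406 to 806.5 in set B, and 759 and 875 in set C. It was led by miR-881-3p and miR-470-5p, with means of 659 and 49.2 CPM. The sum, set mostly by miR-881-3p, overlapped between set A and set B. Singly, 6 of the 9 tested, miR-470-5p and miR-465a-5p among them, were higher in all set B than in all set A libraries, against 78.6% of all tested. miR-465a-5p stood at 1.52 to 2.96 CPM in set A and 21.25 to 35.7 in set B.

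The sum of the blood list, miR-206-3p of muscle and miR-126a-3p of endothelium were higher in all set B than in all set A libraries. So were 78.6% of all tested microRNAs. Of 9 blood microRNAs, 7 were in the reference and 5 were tested. The list summed to 3.00 to 10.0 CPM in set A, 58.0 to 96.6 in set B, and 35.7 and 38.5 in set C. It was led by miR-146a-5p and miR-155-5p, which are found in many cell types; its red cell microRNA miR-144-3p was at 0 in all 8 libraries and miR-451a was at 2.20 CPM or less. miR-206-3p, the only muscle microRNA of 5 named that was in the reference, stood at 0.0759 to 0.158 CPM in set A, 64.7 to 75.3 in set B, and 0.147 and 0.676 in set C. miR-126a-3p, the only endothelial microRNA of 2 named that was in the reference, stood at 1.37 to 2.81, 11.7 to 19.2, and 14.2 and 7.82 CPM. For liver, 2 of 3 were in the reference and tested, miR-192-5p and miR-194-5p. Their sum was 16.2 to 26.8 CPM in set A and 6.404 to 11.85 in set B. None of these was called in any comparison.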

How the data were processed

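The deposited sperm files hold read counts per distinct sequence, without a header; how adapters were trimmed is not stated in the sources used here. GRCm38 is named in the submitters' processing notes. Reads of 20 to 26 nt were matched without a mismatch to the first 20 bases of 1621 RefSeq arms (GRCm38.p6), leaving out 52 arms under 20 nt. The 8 libraries of 3T3 cells were not used here. Sets were defined from base changes in the 50 most abundant sequences of a library.

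Counts were fitted with edgeR 4.0.16 (R 4.3.3) over 4 groups, with total reads as library size and filterByExpr; DESeq2 1.42.0 was an alternative, with TMM, other filters, match rules, the set or the replicate number as a term, and each library left out. The fit was also run on simulated data with a fixed spread and no sets, which does not test how it handles the sets seen here. No replicate pair agreed within counting noise. Replicate numbers did not pair the libraries (r from -0.56 to 0.58 over 6 pairs of groups).

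Members, lists and tests were chosen with earlier results of these data known. Named microRNAs were the members, their 5p arms, the 5 of most like pattern (mean of at least 10 CPM) and the 2 most abundant of each list, with others of a list named after their values were seen.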

Additional observations from a re-analysis of the deposited data

Results flagged for a closer look

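Each value was compared with the other 3 libraries of its diet or genotype, over 92 such groups of 4 for 23 values, of which chance alone would mark about 5%; 20 stood far from the rest, and 8 of these were in Dnmt2+/+ ND replicate 2. Against the other ND libraries that library was high in miR-200a-3p (268 CPM against 39.3 to 66), miR-200b-3p (846 against 93.6 to 210.3), miR-429-3p (35.97 against 1.07 to 5.31), miR-200c-3p (755.5 against 56.35 to 129.6) and miR-141-3p (8.57 against 0.152 to 0.835). Its share of added bases in miR-200a-3p was 13.0%, against 7.74% to 8.51%. Its RefSeq form of miR-141-3p, at 1.71%, is 2 of 117 reads, against 0 reads in the other ND and the other Dnmt2+/+ libraries, which had 2 to 49 reads of the member; a lone value above 0 makes the gap the whole range, however few its reads, and 4 of the 20 came about in this way. It is the only ND library outside set A.

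Dnmt2+/+ ND replicate 1 was low in miR-429-3p, at 2.26 CPM against 35.97 to 42.7 in the other Dnmt2+/+ libraries. Its RefSeq share of miR-429-3p was 69.8% against 43.3% to 46.9%, over 43 reads. Its 5p share of miR-200a was 44.2% against 12.5% to 13.2%.

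Dnmt2-/- HFD replicate 1, the only Dnmt2-/- library of set B, was high among Dnmt2-/- libraries in miR-429-3p (28.3 CPM against 1.07 to 5.31) and miR-200c-3p (1808 against 56.35 to 251). Its added bases in miR-200a-3p were at 16.8% against 7.04% to 8.51%, and its RefSeq form of miR-141-3p at 5.56% is 3 of 54 reads, against 0 reads in the other HFD and the other Dnmt2-/- libraries.

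Dnmt2-/- HFD replicate 2, the only HFD library outside set B, differed from the other HFD libraries in its added bases of miR-200b-3p (27.6% against 39.1% to 41.3%) and in the ratio of miR-429-3p to miR-200b-3p (0.011 against 0.0275 to 0.0307). It also differed in the ratio of the seed group of miR-200a-3p to that of miR-200b-3p (0.153 against 0.0511 to 0.0589) and in the 5p share of miR-200a (29.9% against 11.8% to 12.85%).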

How the results depend on the processing

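No diet or genotype call was made for a member in the main fit, and which microRNAs were called moved with scaling, filter and single libraries. For diet in Dnmt2+/+, 1 microRNA was called; the count was 0 with TMM, 3 with microRNA reads as library size, 18 with DESeq2, 13 with no filter, 0 with the set as a term and 0 to 72 with a library left out (72 without Dnmt2+/+ ND replicate 2, 7 without either Dnmt2-/- HFD library, and 0 without Dnmt2+/+ ND replicate 1, Dnmt2+/+ HFD replicate 2 or either Dnmt2-/- ND library). For diet in Dnmt2-/-, 1 was called; the count was 0 with TMM, 0 with microRNA reads, 3 with DESeq2, 20 with no filter, 0 with the set and 0 to 68 with a library left out (68 without either Dnmt2+/+ ND library, 10 without Dnmt2-/- HFD replicate 2, and 0 if Dnmt2+/+ HFD replicate 2 was left out, or either Dnmt2-/- ND library). For genotype on ND the count was 0, and 0 to 84 with a library left out (84 without Dnmt2+/+ ND replicate 1). It was 0 in every fit of genotype on HFD and of the interaction. The number tested was 217 without Dnmt2+/+ ND replicate 1, 207 without Dnmt2+/+ ND replicate 2 and 545 with no filter, against 187 in the main fit. With no filter, miR-200c-3p passed in Dnmt2+/+ and Dnmt2-/- (edgeR adjusted p = 0.0197 and 2.97e-05) and miR-200b-3p in Dnmt2-/- (0.0437). Members also passed in fits that left Dnmt2+/+ ND a lone library. These were diet in Dnmt2-/- and genotype on ND without replicate 1, and diet in both genotypes without replicate 2. A lone library shows no spread of its group, so adjusted p-values of members are not given for those fits. The cause of these shifts was not tested.

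The replicate numbers pair no libraries here, and with the replicate number as a block the counts called for diet were 1 and 1, and miR-200c-3p stood at 2.06 and 3.36 in Dnmt2+/+ and Dnmt2-/-; the block changed no call of a member.

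Estimates of members that changed sign, on the log2 scale, were these. With the set as a term, diet in Dnmt2+/+ gave miR-200a-3p -1.61, miR-200b-3p -1.15, miR-429-3p -3.0 and miR-200c-3p -1.39, and diet in Dnmt2-/- gave miR-200a-3p -1.62, miR-200b-3p -1.59, miR-429-3p -4.07, miR-200c-3p -1.68 and miR-141-3p -2.35. The same fit gave 0.49 for miR-429-3p and 0.10 for miR-200c-3p for genotype on ND, 0.34 for miR-141-3p for genotype on HFD, and interactions of -0.01 (miR-200a-3p), -0.44 (miR-200b-3p), -1.07 (miR-429-3p) and -0.29 (miR-200c-3p). With TMM, miR-200a-3p was at -0.75 and -0.88 for diet in Dnmt2+/+ and Dnmt2-/-, 0.16 for genotype on ND and 0.03 on HFD. TMM also gave miR-200b-3p -0.13 and miR-429-3p -0.08 for diet in Dnmt2-/-, miR-200b-3p 0.14 for genotype on ND, and miR-141-3p 0.23 for genotype on HFD. The TMM interactions were -0.13, -0.83, -0.73 and -0.50 for miR-200a-3p, miR-200b-3p, miR-429-3p and miR-200c-3p, and those of DESeq2 were -0.05, -0.70, -0.53 and -0.33. With microRNA reads as library size, diet in Dnmt2+/+ gave miR-200a-3p -1.33 and miR-429-3p -0.36, diet in Dnmt2-/- gave miR-200a-3p -0.65, and genotype on HFD gave miR-141-3p 0.15. DESeq2 gave miR-200a-3p -0.69 and -0.74 for diet in Dnmt2+/+ and Dnmt2-/-, and miR-141-3p 0.16 for genotype on HFD. With up to 1 substitution allowed, miR-141-3p was at 0.03 for diet in Dnmt2+/+.

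With each library left out in turn, diet in Dnmt2+/+ ranged from -0.56 to 1.64 for miR-200a-3p and from -1.04 to 2.96 for miR-141-3p, and diet in Dnmt2-/- from -0.08 to 3.87 for miR-429-3p. Without a change of sign, diet ranged from 0.76 to 3.20 (miR-200b-3p), 0.23 to 4.22 (miR-429-3p) and 1.45 to 4.57 (miR-200c-3p) in Dnmt2+/+, and from 0.58 to 1.64 (miR-200a-3p), 0.85 to 2.80 (miR-200b-3p), 1.43 to 4.28 (miR-200c-3p) and 1.66 to 4.4 (miR-141-3p) in Dnmt2-/-. Genotype on ND ranged from -4.15 to 0.49 for miR-429-3p and from -3.02 to 0.10 for miR-200c-3p, and without a change of sign from -2.35 to -0.14 (miR-200a-3p), -2.48 to -0.04 (miR-200b-3p) and -4.81 to -0.09 (miR-141-3p). On HFD it ranged from -1.20 to -0.15 (miR-200a-3p), -2.39 to -0.48 (miR-200b-3p), -3.81 to -0.58 (miR-429-3p) and -3.04 to -0.20 (miR-200c-3p), and from -1.39 to 0.34 for miR-141-3p, which changed sign. Interactions ranged from -0.44 to 1.77 (miR-200a-3p), -1.10 to 1.34 (miR-200b-3p), -1.93 to 2.72 (miR-429-3p), -1.10 to 2.01 (miR-200c-3p) and -0.20 to 4.53 (miR-141-3p). In percentage points, the RefSeq share of miR-141-3p ranged from -0.427 to 1.43 by diet and by genotype, its added bases from -7.44 to 2.56 by diet, the RefSeq share of miR-200c-3p from -0.509 to 2.94 by diet, its added bases from -0.621 to 1.87 by genotype, and the added bases of miR-429-3p from -6.69 to 3.597 by genotype. Depth limits miR-141-3p most, with 2 to 117 reads a library; the forms of miR-429-3p rest on as few as 14 reads.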
